A study of Mus musculus with 60 samples.

Results

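TRAV16N, TRAV8D-1 and TRAV5-1 are 3 variable (V) gene segments of the T-cell receptor alpha chain, of 109 V segment names listed for alpha chains in the study. They were chosen by a readout. Of the V segments, these were among the ones that took up a smaller fraction of the alpha chain repertoire in gut CD4 T cells than in liver CD4 T cells, so that contrast is described here and is not tested. For CD4 T cells 4692 of 62533 listed alpha chain clonotypes carried one of them (2117 TRAV16N, 1728 TRAV8D-1 and 847 TRAV5-1), and for CD8 T cells 9314 of 59365 did (7540, 1201 and 573). The study sequenced T-cell receptor CDR3 regions of mouse donor T cells to ask how loss of STAT3, alone or with PD-1, changed the repertoire in graft-versus-host disease (GVHD). Lethally irradiated WT BALB/c recipients received T cell-depleted bone marrow from WT C57BL/6 mice together with CD90.2+ T cells from 1 of 3 kinds of C57BL/6 donor. These were WT donors, STAT3ko donors (Stat3 fl/fl with CD4-Cre) and STAT3koPD-1ko donors (the same alleles on a PD-1-/- background). CD4-Cre is active in all T cells that pass through the CD4+CD8+ thymocyte stage, so CD8 T cells also carried the deletion, and the marrow was WT in every group. Donor-type (H-2Kb+) TCRβ+ CD4+ and CD8+ cells were sorted from liver and gut 6 days after hematopoietic cell transplantation (HCT), and each day 6 library pooled 3 recipients. Each alpha chain table held 15 libraries, with 2 liver and 2 gut libraries per genotype and 1 library per genotype of donor spleen T cells taken before HCT. The tables used here hold receptor transcripts alone, so neither the genotype nor the sorted cell type was checked against other genes.

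An alpha chain is built in the thymus when 1 V segment is joined to 1 joining (J) segment. The V segments lie upstream of the J segments, and the first joins take J segments near the V side. If that join is unproductive or the receptor is not selected, the same chromosome can rearrange again with a V segment further upstream and a J segment nearer the constant region. The V segment encodes the loops CDR1 and CDR2, which mostly touch the major histocompatibility complex, while CDR3 spans the V-J junction and mostly touches the peptide. C57BL/6 mice carry duplicated blocks of V segments, named with D and N, in which near-identical copies recur.

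On the mm10 genome all 3 segments are annotated V genes on the plus strand of chromosome 14. Trav5-1 lies at chr14:52622566-52623082 and was the 4th of 108 annotated V segments from the 5′ end. Trav8d-1 (chr14:52778447-52778995) was the 13th and Trav16n (chr14:53351028-53351621) the 67th. Their ends lay 1532, 1376 and 803 kb upstream of Traj61. The ends of their coding sequence decide what a CDR3 can keep of the V segment. The last 60 bases of each are given first, then those of 2 near-identical copies to show how little tells them apart, with the bases inside the CDR3 of the 3 segments in capitals.

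TRAV16N: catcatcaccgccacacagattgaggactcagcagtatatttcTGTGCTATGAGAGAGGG
TRAV8D-1: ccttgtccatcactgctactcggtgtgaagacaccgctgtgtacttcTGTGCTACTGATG
TRAV5-1: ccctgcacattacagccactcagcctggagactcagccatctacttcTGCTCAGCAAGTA
TRAV16D-DV11: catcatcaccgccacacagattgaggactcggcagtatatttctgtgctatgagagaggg
TRAV8-1: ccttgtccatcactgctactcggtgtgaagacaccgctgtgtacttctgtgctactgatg

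TRAV16N brings 17 germline bases into the CDR3, against 13 each for TRAV8D-1 and TRAV5-1. Over the last 250 bases TRAV16N differed from TRAV16D-DV11 at 2 bases and from TRAV16 at 3, and TRAV8D-1 differed from TRAV8-1 at 1. TRAV5-1 had no such copy, since its nearest relatives TRAV5D-4 and TRAV5N-4 differed from it at 46 bases. Reads of TRAV16N and TRAV8D-1 may therefore be split between copies. The copies took small fractions, with a mean usage of 0.124% for TRAV16D-DV11 and 0.111% for TRAV8-1 in CD4 T cells, and 0.0886% and 0.0884% in CD8 T cells. TRAV16 had no clonotype listed.

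Each CDR3 amino acid sequence stood once in each deposited table, with 1 V and 1 J segment, so clonotypes are counted by CDR3 amino acids alone and the V segment of each is that of 1 representative receptor. Comparison of the CD4 and CD8 tables shows what this does to V names. Of 25521 CDR3 sequences listed in both tables, 99.9% had the same J segment in both, but only 29.9% had the same V segment. TRAV16N and TRAV5-1 were credited far more evenly than that. Of 1494 TRAV16N sequences of the CD4 table that also stood in the CD8 table, 94.2% carried TRAV16N there as well, and of 156 such TRAV5-1 sequences 99.4% carried TRAV5-1. TRAV8D-1 was less certain, with the same name for 45.5% of 751 sequences, while 102 were credited to TRAV8N-2 and 85 to TRAV8D-2 in the CD8 table. In the other direction 71.2% of 1977 TRAV16N sequences, 62.1% of 551 TRAV8D-1 sequences and 100% of 155 TRAV5-1 sequences of the CD8 table had the same V segment in CD4. Sequences under another V name in the CD4 table but under TRAV16N in the CD8 table held a further 0.445 to 0.717% of a CD4 library, and for TRAV8D-1 0.248 to 0.732%. In the CD8 libraries this was 0.0436 to 0.288% for TRAV16N and 0.599 to 1.30% for TRAV8D-1, the latter large beside its own CD8 usage of 2.03 to 3.96%. Within a table each sequence had the same V name in all 15 libraries, so comparisons between libraries followed a fixed set of sequences.

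Usage of a segment is its percent of the frequency listed in a library. The listed clonotypes made up 92.5 to 99.1% of a CD4 library and 90.8 to 99.1% of a CD8 library, except in the 3 gut libraries numbered 2, where they made up 81.6 to 83.5% and 79.5 to 80.1%. Libraries also differed in how many of the clonotypes seen before HCT in the same genotype they held. Among CD4 libraries liver 1 held 62.3 to 83.2% of these and gut 1 67.7 to 75.6%, against 37.1 to 46.8% in liver 2 and 22.4 to 37.1% in gut 2, and CD8 T cells were split in the same way (65.9 to 88.8% and 70.8 to 80.2% against 32.4 to 39.2% and 32.4 to 40.1%). For TRAV5-1 in CD4 T cells the span was 57.8 to 84.6% in liver 1 and 12.8 to 17.6% in liver 2. The labels do not tie the study's batches to these numbers, and whether a batch or reads passing between libraries went with this overlap was not tested, nor was its part in any result, and usage differences without gut 2 (gut against liver) or without liver 1 (day 6 against before HCT) are given beside those results. The files hold fractions only, so read depth was unknown and no counting interval is given.

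In CD4 T cells TRAV16N and TRAV8D-1 were common segments and TRAV5-1 a minor one. Before HCT TRAV16N usage was 3.54% in WT, 3.88% in STAT3ko and 3.28% in STAT3koPD-1ko spleen. In the 6 liver libraries it was 3.26% at the lowest, 3.60% at the median and 4.26% at the highest, and in the 6 gut libraries 1.75%, 2.47% and 2.81%. The lowest gut values were those of the STAT3koPD-1ko gut 2 (1.75%) and STAT3ko gut 2 (1.80%) libraries. TRAV8D-1 usage before HCT was 4.86% in WT, 3.32% in STAT3ko and 4.35% in STAT3koPD-1ko. On day 6 it was 3.16% at the lowest, 3.53% at the median and 3.86% at the highest in liver, and 1.53%, 2.69% and 3.07% in gut. The same 2 gut libraries were lowest, at 1.53% (STAT3ko) and 1.57% (STAT3koPD-1ko). TRAV5-1 usage before HCT was 0.665%, 0.614% and 1.27% in the same order of genotypes. Its liver libraries ranged from 0.593 to 0.895% (median 0.747%) and its gut libraries from 0.223 to 0.814% (median 0.406%). These overlapped, because WT gut 1 at 0.814% stood above 5 of the 6 liver libraries, whereas the 3 gut libraries numbered 2 were the lowest of all (0.223 to 0.324%).

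**Figure D1:**
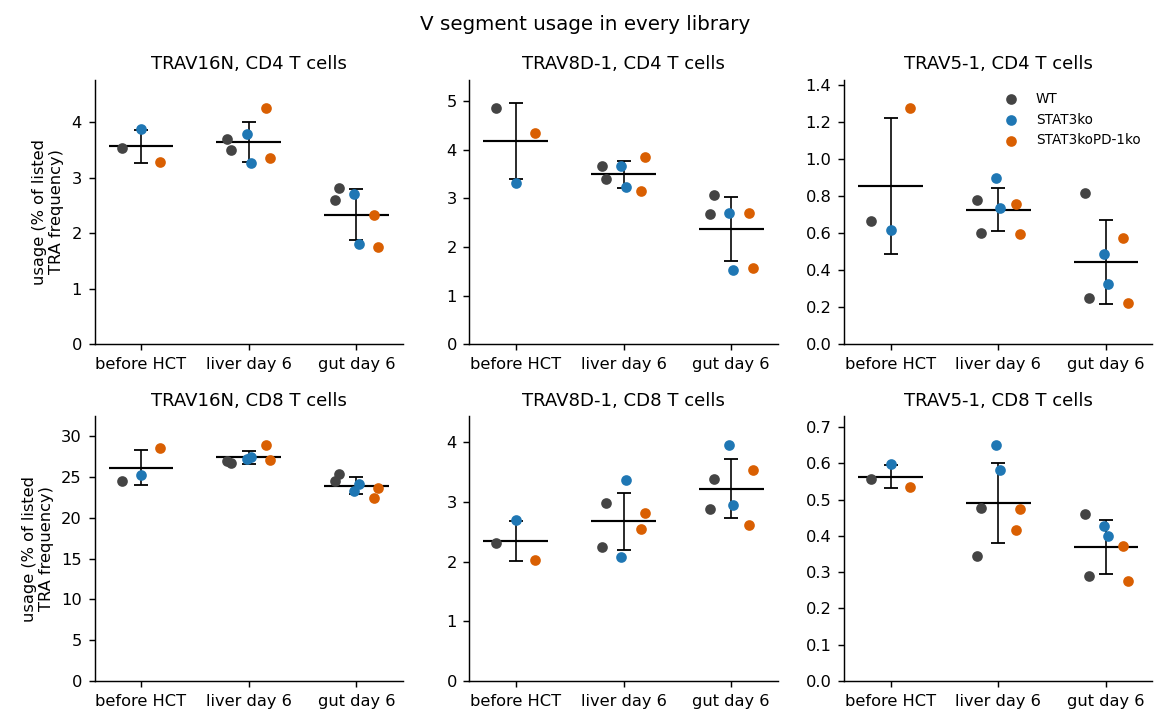
Usage of TRAV16N, TRAV8D-1 and TRAV5-1 as percent of listed frequency in each of the 15 CD4 and 15 CD8 alpha chain libraries, by tissue and genotype, with lines for the mean and bars for the SD of each group. TRAV16N runs from 1.75 to 4.26% in CD4 libraries and from 22.4 to 29.0% in CD8 libraries.

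On the log2(percent + 0.1) scale, with genotype in the fit, the gut minus liver difference in CD4 T cells was −0.64 (SE 0.13) for TRAV16N, −0.59 (SE 0.15) for TRAV8D-1 and −0.69 (SE 0.21) for TRAV5-1. The mean usage was 2.34% ± 0.462 in gut and 3.65% ± 0.360 in liver for TRAV16N, 2.38% ± 0.656 and 3.50% ± 0.275 for TRAV8D-1, and 0.445% ± 0.227 and 0.726% ± 0.115 for TRAV5-1 (SD, n = 6 each). These are the values that chose the segments. Over the 46 V segments whose mean usage reached 0.5%, 7 passed an adjusted p of 0.05 in limma (15.2%; 1 higher and 6 lower in gut), a count from the contrast that chose the segments, from which nothing is read for them. It was 0 with all segments tested or each clonotype counted once, and 1 without any 1 of 5 single libraries: the STAT3ko and STAT3koPD-1ko liver libraries and STAT3koPD-1ko gut 2. Next to the 3 segments by size of the difference, TRAV6-5 (−0.46), TRAV17 (−0.44) and TRAV21/DV12 (−0.43) also passed. TRAV9-2 (−0.64, 0.418 against 0.657%) did not. Without the 3 gut libraries numbered 2 the differences of TRAV16N, TRAV8D-1 and TRAV5-1 were −0.50, −0.36 and −0.20.

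A segment can take less of a library through fewer clonotypes or through smaller ones. Over all gut CD4 libraries the estimated difference was larger for size than for number in each of the 3 segments. Size was not tested against number, and both are parts of the contrast that chose the segments. The mean frequency of a TRAV16N clonotype, over the mean of all clonotypes of the same library, was 0.949 to 1.26 in liver and 0.795 to 0.882 in gut. For TRAV8D-1 it was 1.21 to 1.42 in liver and 0.701 to 1.24 in gut, down from 1.31 to 1.78 before HCT. For TRAV5-1 it was 0.558 to 0.958 in liver and 0.377 to 0.716 in gut, so its clonotypes were smaller than average in every day 6 library. The gut minus liver difference in clonotype size was −0.42 for TRAV16N (SE 0.11), −0.49 for TRAV8D-1 (SE 0.13) and −0.43 for TRAV5-1 (SE 0.16) on the log2 scale. The difference in the percent of listed clonotypes was smaller, at −0.23 (SE 0.097), −0.11 (SE 0.076) and −0.36 (SE 0.19). TRAV5-1 took 0.988 to 1.14% of the clonotypes in gut 1, within its liver range of 0.911 to 1.14%, and 0.430 to 0.656% in gut 2. TRAV8D-1 took 2.59 to 2.72% in gut 1, within its liver range of 2.45 to 2.80%, and 1.96 to 2.48% in gut 2, where WT (2.48%) was within that range. TRAV16N was not split by number in this way, with a liver range of 3.06 to 3.44%. In WT, STAT3ko and STAT3koPD-1ko it took 3.27, 3.10 and 2.71% in gut 1, and 3.19, 2.16 and 2.18% in gut 2. The number of listed clonotypes behind these values ran from 147 to 912 per library for TRAV16N, 132 to 759 for TRAV8D-1 and 29 to 317 for TRAV5-1, so single clonotypes could weigh most on TRAV5-1. Its most frequent clonotype held 4.004 to 41.4% of TRAV5-1 frequency in a library, against 2.06 to 13.7% for TRAV16N and 1.97 to 15.4% for TRAV8D-1.

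**Figure D2:**
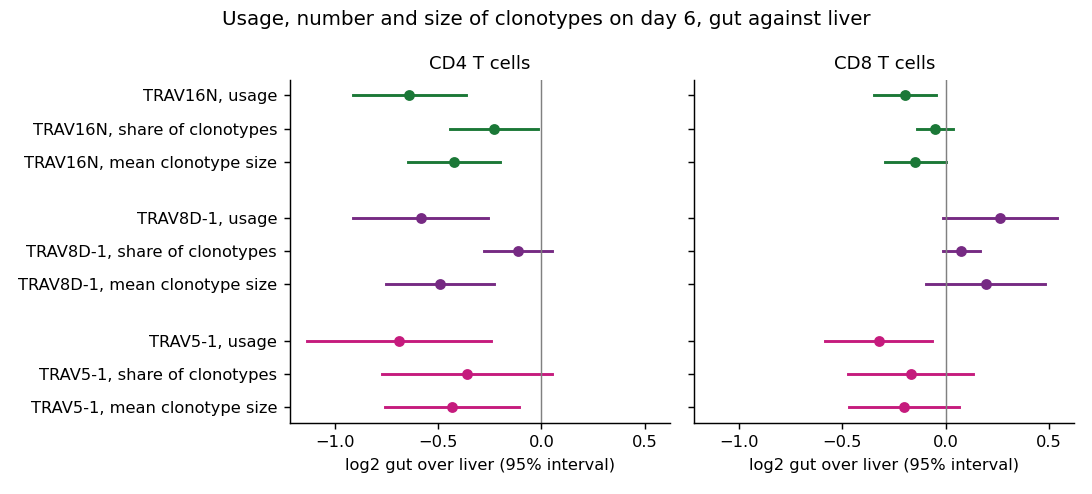
Gut over liver on day 6 (log2, with 95% intervals from limma) for the usage, the share of listed clonotypes and the mean clonotype size of each segment, with CD4 T cells on the left and CD8 T cells on the right. In CD4 T cells the usage differences of −0.64, −0.59 and −0.69 are those that chose the segments and are shown as a description.

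CD8 T cells, whose libraries played no part in the choice, used TRAV16N far more. It was the most used V segment in all 15 CD8 libraries, with a mean of 25.8% of listed frequency, whereas by mean usage it was 8th in CD4 T cells (4th to 21st in single libraries). Before HCT it took 24.5% of the WT, 25.3% of the STAT3ko and 28.6% of the STAT3koPD-1ko library. TRAV16N clonotypes were both many and large there, at 14.04 to 15.9% of listed clonotypes and 1.52 to 1.87 times the library's mean size. TRAV8D-1 usage in CD8 T cells was 2.03 to 3.96% (rank 4 to 9). TRAV5-1 usage was 0.274 to 0.652% (rank 31 to 53). The CD4 and CD8 tables were joined separately by the authors, so their levels are set side by side and were not tested against each other.

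TRAV16N was also lower on average in gut than in liver CD8 T cells, although the difference did not pass the adjusted threshold. Its usage was 26.7% at the lowest, 27.2% at the median and 29.0% at the highest in liver, and 22.4%, 23.9% and 25.5% in gut. Of the 41 segments tested, 14 had an unadjusted p under 0.05 in limma, TRAV16N among them. The TRAV16N difference was −0.20 on the log2 scale (SE 0.071, 95% interval −0.35 to −0.05, limma with Benjamini-Hochberg adjustment over all segments tested, adjusted p = 0.0749). Without gut 2 it was −0.23 (adjusted p = 0.151). In this comparison 5 of 41 segments passed (12.2%; 3 higher and 2 lower in gut), but 0 did without gut 2 or within either replicate number. Over 26 alternatives the adjusted p of TRAV16N ran from 0.0258 to 0.937 and was under 0.05 in 3 of them, but as a percent of the CDR3 sequences not listed for CD4 T cells alone, another denominator, the difference was 0.04. TRAV8D-1 lay the other way, with 2.08 to 3.37% in liver (median 2.68%) and 2.62 to 3.96% in gut (median 3.16%). These overlapped and did not pass the test (0.26, SE 0.13, adjusted p = 0.145, and 0.225 without gut 2). TRAV5-1 was 0.345 to 0.652% in liver (median 0.476%) and 0.274 to 0.462% in gut (median 0.385%), which also overlapped (−0.32, SE 0.12, adjusted p = 0.153 with all 109 segments in the fit, since its mean usage was under 0.5%, and −0.17 without gut 2). Neither clonotype number nor size passed for any of the 3 in CD8 T cells. For the share of clonotypes 3 of 41 segments passed (7.32%), with adjusted p = 0.373, 0.216 and 0.403 for TRAV16N, TRAV8D-1 and TRAV5-1. For clonotype size 2 of 41 passed (4.88%), with adjusted p = 0.256, 0.465 and 0.387. The p-values measure the spread between pooled libraries.

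Against the spleen T cells before HCT, day 6 usage of the 3 segments in CD4 T cells passed no adjusted test. The day 6 mean holds the gut libraries whose low usage chose the segments, so a lower day 6 value is partly built in and the p-values are not independent of the choice. In liver alone the mean was 3.65% for TRAV16N, 3.50% for TRAV8D-1 and 0.726% for TRAV5-1, against 3.57%, 4.18% and 0.851% before HCT. The mean was 2.94% ± 0.758 (SD, n = 12) for TRAV8D-1 on day 6 and 4.18% ± 0.783 (SD, n = 3) before HCT. The difference was −0.53 (SE 0.17, limma adjusted p = 0.137, and 0.0274 to 0.896 over 28 alternatives). For TRAV16N it was −0.29 (SE 0.14, adjusted p = 0.232) and for TRAV5-1 −0.49 (SE 0.26, adjusted p = 0.232). The TRAV5-1 value leant on the STAT3koPD-1ko library before HCT and was −0.14 without it (adjusted p = 0.725), over a range of −0.70 to −0.14 without single libraries. Without liver 1 the differences of TRAV16N, TRAV8D-1 and TRAV5-1 were −0.34, −0.53 and −0.57 (adjusted p = 0.246, 0.246 and 0.248). Of 47 segments 0 passed in limma (0%), and 8 had an unadjusted p under 0.05. The 10 most frequent TRAV8D-1 clonotypes took 38.9 to 48.4% of its frequency before HCT, 23.2 to 35.7% in liver and 13.5 to 39.3% in gut. In CD8 T cells the day 6 differences were −0.03 for TRAV16N (adjusted p = 0.898) and 0.30 for TRAV8D-1 (adjusted p = 0.338), where 2 of 41 segments passed (4.88%). For TRAV5-1 the difference was −0.35 in the fit of all segments (adjusted p = 0.264), where 1 passed. Without liver 1 these 3 differences were −0.04, 0.41 and −0.32 (adjusted p = 0.888, 0.0628 and 0.281). Only 1 library per genotype stood for the time before HCT, and it came from another organ.

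No difference between donor genotypes in the usage of the 3 segments passed a test. For CD4 T cells STAT3ko minus WT on day 6 was −0.16 for TRAV16N, −0.26 for TRAV8D-1 and 0.02 for TRAV5-1 (limma adjusted p = 0.960 for each). Of 46 segments 0 passed (0%) and 0 had an unadjusted p under 0.05. STAT3koPD-1ko minus STAT3ko was −0.01, 0.02 and −0.17, where 0 of 46 passed (0%) in limma and 1 had an unadjusted p under 0.05. With 4 libraries a genotype the 95% intervals were wide, from −0.66 to 0.14 for TRAV8D-1 in STAT3ko against WT, for example. In CD8 T cells TRAV16N usage was 25.9% ± 1.13 in WT, 25.6% ± 2.16 in STAT3ko and 25.5% ± 3.02 in STAT3koPD-1ko (SD, n = 4 each). The STAT3ko minus WT differences were −0.02 for TRAV16N and 0.08 for TRAV8D-1, and 0.32 for TRAV5-1 in the fit of all segments (adjusted p of 0.571 or more). Of 41 segments 0 passed there (0% in limma, 5 with an unadjusted p under 0.05), and 1 of all segments. STAT3koPD-1ko minus STAT3ko was −0.00 for TRAV16N and −0.07 for TRAV8D-1, in a comparison where 1 of 41 passed (2.44%). For TRAV5-1 it was −0.34 (0.384 against 0.515%) in the fit of all segments (adjusted p = 0.411), where 0 passed.

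TRAV16N stood apart from other segments in how much of its CD4 repertoire was listed for CD8 T cells too. Of its 2117 CD4 CDR3 sequences 70.6% were also in the CD8 table under any V name, the highest share of 47 segments (median 39.4%), and these held 77.5 to 96.5% of TRAV16N frequency in a CD4 library (median 82.6%). Seen from CD8 T cells the share was the lowest of 42 segments, since 26.2% of 7540 CD8 sequences were in the CD4 table (median of segments 50.8%). The TRAV16N list was the longer one in CD8 T cells, which enters both shares. Among the 1408 sequences that carried TRAV16N in both, 84.7% had a higher mean frequency in CD8 libraries, and 90 of the 100 most frequent ones of the CD4 table stood in the CD8 table. TRAV8D-1 was near the middle, with 43.5% of its CD4 list and 45.9% of its CD8 list shared. TRAV5-1 was among the least shared in both, with 18.4% (46th of 47) and 27.1% (41st of 42). These ranks depend on counting under any V name. With the same V name in both tables TRAV16N was 1st in CD4 (66.5%) and 9th in CD8 (18.7%). TRAV8D-1 was then 9th (19.8%) and 3rd (28.5%), and TRAV5-1 11th (18.3%) and 5th (27.05%). The medians of segments were 6.545% and 9.28%. In a CD4 library sequences shared under any V name held 41.1 to 79.8% of TRAV8D-1 frequency and 14.3 to 56.5% of TRAV5-1 frequency, against 69.1 to 83.6% over all segments.

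**Figure D3:**
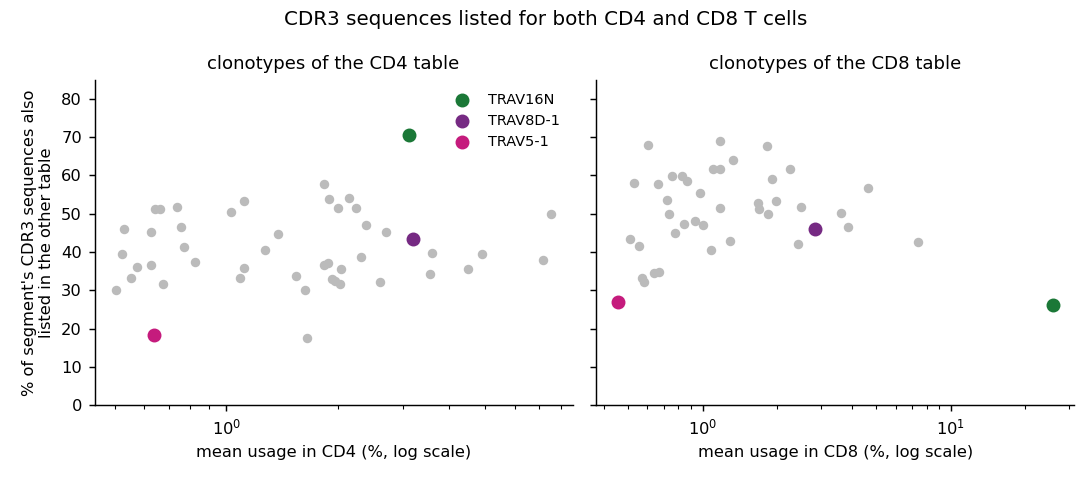
Percent of each V segment's CDR3 amino acid sequences that were also listed, under any V name, in the table of the other sorted cells, against its mean usage (log axis), for the CD4 table (left) and the CD8 table (right), with other segments in grey. TRAV16N is highest on the left (70.6%) and lowest on the right (26.2%), and TRAV5-1 is low in both (18.4 and 27.1%).

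The usage of the segments can be divided into sequences shared under any V name and the others, each as percent of all listed frequency. Over all segments the shared sequences took more in gut than in liver at the median, 78.5 against 72.5% in CD4 T cells and 78.6 against 70.7% in CD8 T cells, so the others took less over all segments taken as one. For TRAV16N the shared sequences had a median usage of 2.89% in liver and 2.01% in gut, and those not listed for CD8 T cells 0.677% and 0.285%. For TRAV8D-1 these were 2.11% and 1.64% for shared sequences and 1.37% and 0.869% for the others. For TRAV5-1 they were 0.206% and 0.139%, and 0.479% and 0.268%. In CD8 T cells TRAV16N sequences shared with CD4 took 18.2% in liver and 16.7% in gut at the median, and those listed for CD8 T cells alone 9.31% and 6.80%.

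The 3 segments were joined to different parts of the J region. J segments are numbered from the constant region, so a high number lies near the V segments. TRAV5-1, near the 5′ end of the locus, was joined to low numbers: its mean TRAJ number minus that of all other clonotypes was −6.12 in the 12 day 6 CD4 libraries (SE 0.37, limma adjusted p = 6.05e-12) and −7.48 in CD8 (SE 0.46, adjusted p = 1.18e-10). TRAV16N, further towards the J segments, was joined to higher numbers, by 1.46 in CD4 (SE 0.45, adjusted p = 0.00540) and 3.92 in CD8 (SE 0.23, adjusted p = 6.37e-11). TRAV8D-1 lay below the rest in CD8 T cells, by −3.15 (SE 0.26, adjusted p = 6.72e-09). For CD4 T cells its difference was −0.77 (SE 0.41, adjusted p = 0.0800), and over its alternatives the adjusted p ran from 7.34e-08, with each clonotype counted once (−1.62), to 0.234. Leaving out 1 library moved this call, which passed without STAT3ko liver 1 (−0.95, adjusted p = 0.0391) and without STAT3koPD-1ko liver 1 (−0.98, adjusted p = 0.0247). Differences of this kind were the rule, with 41 of 46 segments past the threshold in CD4 (89.1%) and 37 of 41 in CD8 (90.2%). The libraries share many clonotypes under fixed V names, so these p-values do not measure independent repertoires. Across segments the order along the locus went with the mean TRAJ number, with a Spearman rho of 0.756 over 46 CD4 segments and 0.752 over 41 CD8 segments. These are descriptions over segments that share their libraries. Means rose mainly among the V segments nearest the J segments, and TRAV16N lay above its neighbours: TRAV7N-6 (the 64th) and TRAV14N-3 (the 69th) had means of 23.5 and 24.1 in CD4 T cells and 23.7 and 22.95 in CD8, against 31.3 and 31.6 for TRAV16N. TRAV16, the copy that differs from TRAV16N at 3 of 250 bases and has no clonotype listed, is the 100th segment, between TRAV7-6 (36.0 in CD4 T cells) and TRAV14-3 (46.1). Its part in the TRAV16N profile was not tested.

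**Figure D4:**
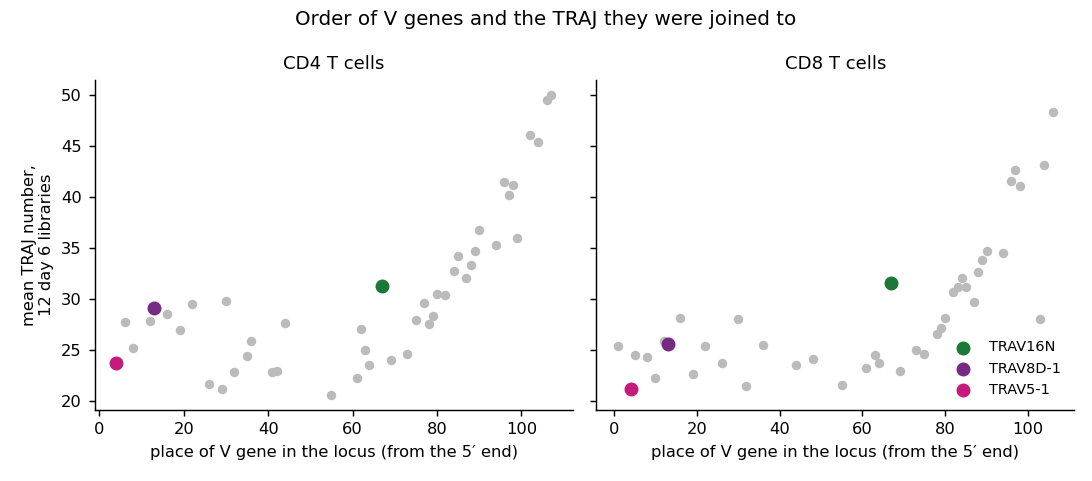
Mean TRAJ number of each V segment's clonotypes on day 6 against the place of the V segment along the locus from the 5′ end, for CD4 (left) and CD8 (right) T cells, with other segments in grey. TRAV5-1, the 4th segment, has means of 23.8 and 21.2, below TRAV16N, the 67th, at 31.3 and 31.6.

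The share of J segments numbered 40 and above shows the same in single libraries. TRAV5-1 clonotypes had 0 to 16.7% of their frequency on these in CD4 libraries (median 5.39%), against 21.8 to 31.1% for all other clonotypes, and 0.288 to 6.59% in CD8 libraries (median 3.27%). TRAV5-1 lay below the rest in 15 of 15 libraries of each table. TRAV16N had a median of 32.5% in CD4 and 33.7% in CD8 libraries, above the rest in 12 of 15 and in 15 of 15. TRAV8D-1 had 23.4% in CD4, on both sides of the rest, and 10.95% in CD8, below the rest in 15 of 15. The mean TRAJ number did not differ between gut and liver beyond the spread. For CD4 T cells it differed by −0.91 for TRAV16N (limma adjusted p = 0.802), −1.47 for TRAV8D-1 (adjusted p = 0.559) and 0.05 for TRAV5-1 (adjusted p = 0.968). Of the segments 0 passed in either table (0% of 46 in CD4, 3 with an unadjusted p under 0.05, and 0% of 41 in CD8, 1 with an unadjusted p under 0.05).

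**Figure D5:**
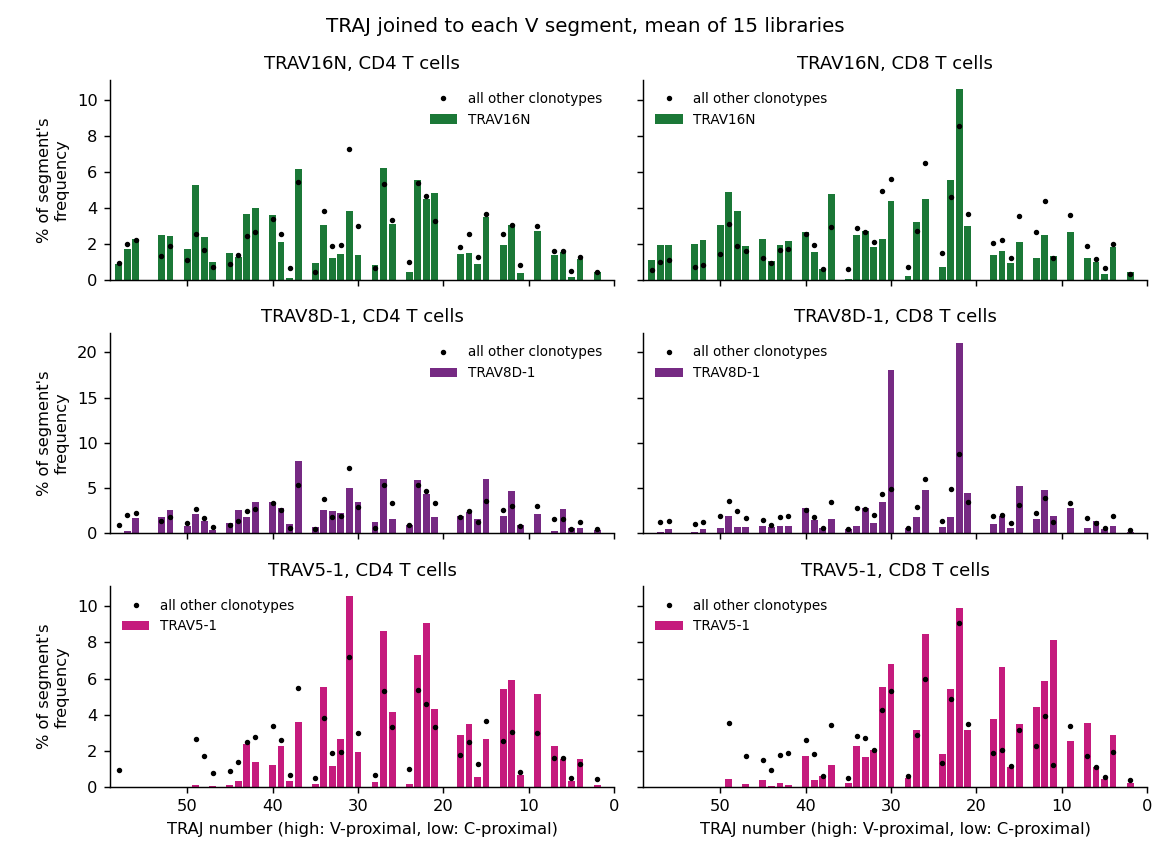
Percent of each segment's frequency joined to each J segment (bars, mean of 15 libraries) beside that of all other clonotypes (points), from high TRAJ numbers near the V segments to low numbers near the constant region. TRAV8D-1 in CD8 T cells has its highest bars at TRAJ22 (21.1%) and TRAJ30 (18.1%), and TRAV5-1 has little above TRAJ40 in either table.

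TRAV8D-1 in CD8 T cells was joined above all to TRAJ22 and TRAJ30 at the mean of the 15 libraries. TRAJ22 took 21.1% of its frequency at the mean (13.3 to 33.7% over libraries) and TRAJ30 18.1% (5.16 to 27.2%), against 8.74% and 4.91% for all other clonotypes, and both were above the rest in 15 of 15 libraries. Among CD4 T cells the same V segment was spread over more J segments, led at the mean by TRAJ37 (8.03%, above the rest in 9 of 15 libraries), TRAJ15 (5.97%, 11 of 15) and TRAJ27 (5.96%, 9 of 15). TRAJ37 on TRAV8D-1 stood at a median of 11.02% before HCT, 8.06% in liver and 3.94% in gut. TRAV16N was led by TRAJ22 in CD8 T cells (10.6%, above the rest in 15 of 15 libraries) and at the mean by TRAJ27 (6.20%, 9 of 15), TRAJ37 (6.14%, 8 of 15) and TRAJ23 (5.58%, 4 of 15) in CD4 T cells, where TRAJ23 had a median of 4.20% and a highest value of 18.9%. For TRAV5-1 single libraries weighed on the means. In CD4 T cells TRAJ31 had a mean of 10.6% (median 7.502%, highest 43.2%), TRAJ22 9.06% (median 5.59%, highest 45.7%) and TRAJ27 8.63% (median 5.73%, highest 32.8%), above the rest in 8, 10 and 9 of 15 libraries. In CD8 T cells it was led by TRAJ22 (9.91%, 8 of 15), TRAJ26 (8.45%, 9 of 15) and TRAJ11 (8.11%, 8 of 15). The last had a median of 2.16% and took 68.3% of TRAV5-1 in WT before HCT, where a single clonotype held 68.0%.

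The leading clonotypes of day 6 show how these junctions are built. For each segment and table the 2 with the highest mean frequency are given as the CDR3 nucleotide sequence that the table lists for that amino acid sequence, with bases that match neither the germline V nor the germline J end in capitals.

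TRAV16N CD4, first, TRAJ15: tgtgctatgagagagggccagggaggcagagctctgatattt
TRAV16N CD4, second, TRAJ12: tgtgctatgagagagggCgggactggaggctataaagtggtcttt
TRAV16N CD8, first, TRAJ22: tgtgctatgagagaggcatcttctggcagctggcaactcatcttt
TRAV16N CD8, second, TRAJ22: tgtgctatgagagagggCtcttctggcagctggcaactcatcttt
TRAV8D-1 CD4, first, TRAJ15: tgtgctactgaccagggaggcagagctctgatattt
TRAV8D-1 CD4, second, TRAJ6: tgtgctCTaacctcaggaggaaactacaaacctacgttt
TRAV8D-1 CD8, first, TRAJ22: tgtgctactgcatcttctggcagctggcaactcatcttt
TRAV8D-1 CD8, second, TRAJ30: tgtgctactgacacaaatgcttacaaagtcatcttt
TRAV5-1 CD4, first, TRAJ27: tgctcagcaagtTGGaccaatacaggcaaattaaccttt
TRAV5-1 CD4, second, TRAJ27: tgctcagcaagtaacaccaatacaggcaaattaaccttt
TRAV5-1 CD8, first, TRAJ17: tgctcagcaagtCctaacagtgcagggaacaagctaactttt
TRAV5-1 CD8, second, TRAJ22: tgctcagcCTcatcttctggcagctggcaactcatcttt

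Several of these hold no base beyond the germline ends, among them the first of TRAV16N and of TRAV8D-1 in each table. Clonotypes with and without added bases were found in many libraries. The first TRAV16N clonotype of CD8 T cells was listed in all 15 CD8 libraries at 0.182 to 0.688% (median 0.391%) and in 12 CD4 libraries at up to 0.106%. Its neighbour with 1 added base stood in all 15 CD8 libraries at 0.123 to 0.6254%. The first TRAV16N clonotype of CD4 T cells was in 13 CD4 libraries, at up to 0.257% in STAT3ko liver 1 and a median of 0.00698%, and in all 15 CD8 libraries at 0.0142 to 0.1004%. The first TRAV8D-1 clonotype of CD4 T cells was in all 15 CD4 libraries at 0.00486 to 0.232%, highest in STAT3ko before HCT. The second, with the TRAJ6 join, was also in all 15, at up to 0.167%, and was listed in no CD8 library with the same V and J. In CD8 T cells the TRAV8D-1 clonotypes with TRAJ22 and TRAJ30 reached 0.324% and 0.196% and were in all 15 libraries. The leading TRAV5-1 clonotypes were in 3 and 14 CD4 libraries and in 4 and 9 CD8 libraries. The first of CD4 T cells, with 3 added bases, was seen in 3 STAT3ko libraries, at 0.204% in liver 1, 0.00902% before HCT and 0.00383% in gut 1, which are the libraries with the high overlap described above, and was not listed in STAT3ko liver 2 or gut 2. The first of CD8 T cells was in 4 libraries, at 0.188% in STAT3ko gut 2, and the second, in 9 libraries, at up to 0.0885%. The second CD4 clonotype, with no added base, was in 14 libraries at up to 0.0322%.

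In CD8 T cells 182 TRAV16N, 11 TRAV8D-1 and 0 TRAV5-1 clonotypes were listed in all 15 libraries, of 617 over all segments, and in CD4 T cells 7, 7 and 0 of 774. Clonotypes in at least 3 libraries made up 50.9% of TRAV16N, 52.7% of TRAV8D-1 and 35.5% of TRAV5-1 in CD4 T cells (50.9% over all segments), and 59.5%, 55.4% and 36.8% in CD8 T cells (51.5%). No base beyond the germline ends was present in 10.3% of TRAV16N, 10.8% of TRAV8D-1 and 9.92% of TRAV5-1 CD4 clonotypes, and in 5.45%, 10.7% and 10.5% of CD8 clonotypes, and the median was 3 such bases throughout.

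The segments also differed in CDR3 length. TRAV16N, with the longest germline part, had a CDR3 longer by 1.23 amino acids than all other clonotypes in CD4 T cells (SE 0.035, limma adjusted p = 3.71e-18) and by 1.42 in CD8 (adjusted p = 1.14e-17), the longest of the segments tested in each table. TRAV8D-1 was shorter, by −0.55 in CD4 (adjusted p = 8.19e-12) and −0.96 in CD8 (adjusted p = 5.19e-11), as was TRAV5-1, by −0.33 (adjusted p = 5.10e-05) and −0.45 (adjusted p = 5.29e-05). Most segments differed from the rest in length, 34 of 46 in CD4 (73.9%) and 32 of 41 in CD8 (78.0%). Libraries of a table share many clonotypes, each under a fixed V name, so these p-values do not measure independent repertoires.

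Across the 15 CD4 libraries the usage of TRAV16N varied most like that of TRAV6-5 (Pearson r of log2 usage 0.899), then TRAV8D-1 (0.856). TRAV8D-1 was most like TRAV6-5 (0.886) and TRAV16N (0.856), while TRAV5-1 was most like TRAV9-2 (0.933) and TRAV13D-2 (0.766). In the 15 CD8 libraries the nearest segments were others, TRAV5-4 for TRAV16N (0.685), TRAV10D for TRAV8D-1 (0.718) and TRAV12D-2 for TRAV5-1 (0.674). These values describe libraries that share tissue and donor, and in CD4 T cells they hold the contrast that chose the segments.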

How the data were processed

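T-cell receptor alpha chain CDR3 libraries of sorted CD4+ and CD8+ T cells were made by the study with a 5′ template-switch kit and read on a MiSeq. Per the labels and the study's methods, MiXCR (mouse, mm10) assembled clonotypes and VDJtools joined the libraries of each cell type. The deposited tables give, for each CDR3 amino acid sequence, its V and J segment and its fraction of the reads of each library, computed by the authors; depth and read counts are unknown. Here fractions were summed by V segment (allele suffix dropped), divided by the listed total and tested as log2(percent + 0.1) with limma 3.58.1 in R 4.3.3 (moderated test, two-sided, Benjamini-Hochberg adjustment over all V segments whose mean usage in the libraries of the fit reached 0.5%). TRAV5-1 in CD8 lies under that limit; its usage was taken from the fit of all segments, and for the other measures it was added to the segments tested. TRAJ position and CDR3 length are frequency-weighted means, segment minus the rest of the library. Tables were made with pandas 2.3.3 (Python 3.11.15), and germline ends from the GENCODE mm10 annotation were compared with Biopython 1.88. The usage fit was tested on simulated data.

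Named beyond the 3 segments were their family members, the segments most like each in usage, the top 3 TRAJ, the 2 leading clonotypes by day 6 mean frequency and the neighbours at the threshold; some results outside this rule (TRAJ40 and above, V names in the other table) were chosen after values were seen. The segments and lists were chosen with earlier results of these data known. Alternatives were other pseudocounts, no filter, percent of all reads, clonotypes in at least 3 libraries, each clonotype counted once, the most frequent clonotype left out, CDR3 ends filtered, copies merged, single libraries or sets of libraries left out, and the replicate number as a block. Usage from CDR3 sequences not listed for the other cells was added after seeing the data. The study's 2 batches are not tied to libraries in the labels. Same-numbered libraries of different groups deviated together only in part (r from −0.149 to 0.591 over 15 pairs of groups in CD4, −0.0161 to 0.609 in CD8), so the numbers were not taken to pair them.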

Additional observations from a re-analysis of the deposited data

Results flagged for a closer look

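Of 72 groups of 6 libraries looked at for 1 library far from the rest, 4 held one, where chance alone flags about 1 in 20. In CD4 T cells the most frequent TRAV16N clonotype took 13.7% of TRAV16N frequency in STAT3koPD-1ko gut 2, and the next gut library had 5.46%. The most frequent TRAV5-1 clonotype took 22.8% in STAT3ko liver 1, and the next liver library had 10.7%. The mean TRAV5-1 CDR3 length in STAT3ko gut 2 was 12.3 amino acids, and the next gut library had 12.9. In CD8 T cells TRAV16N usage was 29.0% in STAT3koPD-1ko liver 1, and the next liver library had 27.5%.

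In 3 of 36 measures (each of a segment in a table) gut and liver libraries did not overlap in 2 genotypes or more, with opposite directions between genotypes. This was not tested, and the share that chance alone would give was not worked out. The share of TRAV8D-1 frequency in its most frequent CD4 clonotype changed from liver to gut by −6.16 percentage points in WT and −4.41 in STAT3ko, but by 5.33 in STAT3koPD-1ko. For TRAV16N in CD8 T cells this share changed by −0.595 points in WT and 2.05 in STAT3koPD-1ko. The mean TRAJ number of TRAV8D-1 in CD8 T cells changed by 1.37 in WT, −0.960 in STAT3ko and −1.56 in STAT3koPD-1ko.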

How the results depend on the processing

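Over 1039 alternatives to 54 results on the 3 segments, 966 were unchanged, and the causes of the others were not tested. Unchanged means the same direction and side of the threshold, so a result that did not pass still did not pass. For the descriptive CD4 gut against liver results, which have no p-value, it means the same direction and a shift smaller than the residual SD. Settings of sequences not listed for the other cells take usage as a percent of such sequences alone. The descriptive CD4 gut minus liver usage moved beyond its spread for TRAV16N (−0.23 with each clonotype counted once, −1.02 with sequences not listed for CD8), TRAV8D-1 (−0.11 counted once) and TRAV5-1 (−0.20 without gut 2). CD8 TRAV16N in gut against liver passed with all segments (adjusted p = 0.0381), a pseudocount of 0.5 (0.0355) and percent of all reads (0.0258), and was 0.0362 as a percent of the sequences not listed for CD4 (adjusted p = 0.937). Against before HCT, where the CD4 values hold the gut libraries that chose the segments and are no independent support, TRAV8D-1 in CD4 passed with clonotypes in at least 3 libraries (−0.62, adjusted p = 0.0413) and within replicate number 2 (−0.64, 0.0274), TRAV5-1 in CD4 within number 2 (−0.81, 0.00762, of a range up to 0.896), and TRAV5-1 in CD8 with sequences not listed for CD4 (−0.69, 0.0432, of a range up to 0.961).

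Counts of segments called moved as follows. CD4 gut against liver (7) fell to 0 with all segments, counted once or unlisted for CD8, and to 1 within number 1 or without gut 2. CD4 day 6 (0) rose to 2 with clonotypes in at least 3 libraries and 4 within number 2. CD8 gut against liver (5) fell to 3 with at least 3 libraries or merged copies, and to 0 counted once, unlisted for CD4, within either number or without gut 2. CD8 day 6 (2) was 1 with all segments or unlisted for CD4, 0 counted once and 4 without the most frequent clonotype. CD8 STAT3ko against WT (0) was 1 with all segments or unlisted for CD4. CD8 STAT3koPD-1ko against STAT3ko (1) was 0 with all segments, a pseudocount of 0.5, all reads, counted once, without the most frequent clonotype, unlisted for CD4, with merged copies and within number 1. CD8 clonotype number (3) was 0 and size (2) was 1 with at least 3 libraries. Leaving out single libraries gave 1 to 9 and 2 to 7 calls for gut against liver in CD4 and CD8, 1 to 4 for CD8 day 6, 0 to 1 for both CD8 genotype comparisons and for CD4 TRAJ in gut against liver, 0 to 4 for CD8 number and 0 to 6 for CD8 size. The CD4 count was 1 without either STAT3ko liver, either STAT3koPD-1ko liver or the STAT3koPD-1ko gut 2 library, 2 without STAT3ko gut 2, and 4 without WT liver 1 or WT gut 2. The CD8 gut against liver count was 2 or 3 without any 1 library other than WT liver 2, STAT3ko liver 2 and STAT3koPD-1ko gut 1, and the CD8 size count was 6 without WT liver 2.

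Some differences, none of them past the threshold, changed sign. STAT3ko against WT in CD4 became 0.136 (TRAV16N, unlisted for CD8), 0.0467 (TRAV16N) and 0.00226 (TRAV8D-1) within number 1, and for TRAV5-1 −0.169 (counted once), −0.0687 (without the most frequent clonotype) and −0.227 (within number 1). In CD8 it became 0.0433 (TRAV16N, counted once), 0.0208 (TRAV16N, unlisted for CD4), −0.0122 (TRAV8D-1, within number 2) and −0.0325 (TRAV5-1, counted once). STAT3koPD-1ko against STAT3ko in CD4 became 0.0323 (at least 3 libraries), 8.04e-05 (merged copies) and 0.000447 (within number 2) for TRAV16N, and −0.0423 (at least 3 libraries), −0.0458 (counted once) and −0.101 (within number 1) for TRAV8D-1. In CD8 it became 0.0177 (TRAV16N, within number 1), 0.253 (TRAV8D-1, unlisted for CD4), 0.00267 (TRAV8D-1, within number 2) and 0.0891 (TRAV5-1, counted once). CD8 TRAV16N on day 6 became 0.0154 (at least 3 libraries) and 0.0945 (unlisted for CD4). TRAJ position in gut against liver became −0.118 (at least 3 libraries) and −0.391 (counted once) for CD4 TRAV5-1, 0.00122 for CD8 TRAV16N and 0.128 for CD8 TRAV5-1 (counted once). Without single libraries, STAT3ko against WT ran from −0.199 to 0.324 (CD4 TRAV5-1), −0.0436 to 0.00439 (CD8 TRAV16N) and −0.0287 to 0.222 (CD8 TRAV8D-1). STAT3koPD-1ko against STAT3ko ran from −0.119 to 0.106, −0.154 to 0.188 and −0.362 to 0.0368 (CD4 TRAV16N, TRAV8D-1 and TRAV5-1), and −0.0380 to 0.0260 and −0.216 to 0.0352 (CD8 TRAV16N and TRAV8D-1). CD8 TRAV16N on day 6 ran from −0.0807 to 0.0440, and TRAV5-1 TRAJ position in gut against liver from −0.455 to 0.374 (CD4) and −0.723 to 0.345 (CD8).

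With the replicate block, 9 segments passed for CD4 gut against liver, 4 for CD8, 4 for CD8 clonotype number and 5 for CD8 size, and no call on the 3 segments changed. In CD4 11 of 15 pairs of groups had same-numbered deviations correlated over 0.1, and in CD8 12 of 15.

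The main limits are the single V name per CDR3 sequence, near-identical copies of TRAV16N and TRAV8D-1, unknown depth, the lower listed share of gut 2 and 2 pooled libraries per tissue and genotype.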
